A study of Mus musculus with 12 samples.

Results

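The comparison concerned the step from Stage1 to Stage2 in the reprogramming of mouse embryonic fibroblasts (MEF) to induced pluripotent stem cells (iPSC). Its members were the 3 RNA sequencing libraries titled Stage2 and the 3 titled Stage1, which made 6 of the 12 libraries of the series. Stage1 cells were taken at day 6 of reprogramming and Stage2 cells 4 days later. All libraries carried the same mixed strain label, C57BL/6 crossed with 129, and per the series text the cells of both stages were sorted for Oct4-GFP, a fluorescent reporter of the pluripotency gene Pou5f1. No other allele, agent or age was given for either group. The other 6 libraries, 3 titled MEF and 3 titled iPSC, were used only to set the levels in context. The source is given only as cells, and nothing in the labels says whether replicates came from separate cultures or animals, so every p-value rests on differences among these libraries that may be only technical.

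Reprogramming erases the expression program of a fibroblast and installs the transcription network that keeps embryonic stem cells pluripotent. Pluripotency itself is a series of states: naive cells resemble the epiblast before implantation, while formative and primed cells resemble the epiblast after it. Movement along that series is governed by Nodal, fibroblast growth factor (FGF), Wnt, bone morphogenetic protein (BMP) and leukaemia inhibitory factor (LIF) signals. Pluripotent cells also use glucose heavily, carry high levels of Myc, and turn over threonine and folate intermediates rapidly.

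Reads counted on genes numbered 11676480 to 14395538 per library at Stage1 and 9257487 to 13528952 at Stage2. A count of 0 thus allowed up to 0.208 to 0.324 CPM (counts per library total). Levels below are TMM-scaled CPM, while this bound, which stands for 3 counts, is not TMM-scaled. Such floors and the counting intervals below cover counting error only. The share of reads outside annotated genes was 42.8% ± 4.11 at Stage1 and 49.9% ± 3.16 at Stage2 (SD, n = 3), with an exact two-sided permutation p of 0.1, the smallest that 3 against 3 allows. For all 12 libraries the Stage characteristic names another group than the title. The Stage1-titled libraries are described there as MEF and unsorted, and the Stage2-titled ones as day 6. The counts of marker genes were set against this conflict: the core pluripotency list of 17 genes summed to 4116 to 4422 CPM in the Stage1-titled libraries and 8.52 to 12.7 in the MEF-titled ones. The fibroblast and mesenchymal list of 26 genes summed to 591.6 to 868.9 CPM in the Stage1-titled libraries and 44740 to 54376 in the MEF-titled ones. The Stage1-titled libraries therefore did not carry the MEF expression pattern, and "Stage1" and "Stage2" below mean the libraries with those titles. Replicate 1 of Stage1 stood apart from its fellows in several gene groups described below.

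The step changed a large part of the transcriptome. Of 14770 genes tested with edgeR's quasi-likelihood test at a Benjamini-Hochberg adjusted p below 0.05, 3048 were higher at Stage2 (20.6%) and 2921 were lower (19.8%), together 40.4%. At 2-fold or more the changes were less even, with 2193 genes higher (14.8%) and 774 lower (5.24%). The direction of many small decreases depended on scaling. Levels were scaled by the trimmed mean of M-values (TMM), which put the median gene at a log2 fold change of 0.02. Scaling by library totals moved it to 0.22, a shift of 0.20, and called 4026 genes higher (27.3%) and 1678 lower (11.4%). Calls for higher genes then made up 70.6% of all calls instead of 51.1%. All 3048 genes called higher with TMM were also called higher with library totals, and 1678 of the 2921 lower ones were also called lower. In 4339 genes (29.4%) all 3 Stage2 libraries lay above all 3 Stage1 libraries, and in 4457 (30.2%) they lay below. A lack of overlap, given below for single genes, was therefore common.

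The step was set beside the difference between iPSC and MEF. Of the 3048 genes higher at Stage2, 1615 (52.99%) were higher in iPSC than in MEF and 1021 (33.5%) were lower, against 44.9% and 35.8% of all genes tested. Of the 2921 genes lower at Stage2, 1345 (46.0%) were higher in iPSC than in MEF and 1074 (36.8%) were lower. With library totals, which called 1678 genes lower and 4026 higher at Stage2, 541 genes were lower in both comparisons and 2244 were higher in both. The shares of 44.9% and 35.8% come from TMM. They are not given for library totals, so these overlaps have no background here. Between the Stage2-titled and the iPSC-titled libraries fewer genes differed, 1360 higher in iPSC (9.21%) and 1310 lower (8.87%), in a comparison that shares the Stage2 libraries with the step itself. Median differences moved with gene length: in 4 equal groups of genes from the shortest to the longest by exonic length, the median log2 fold change was -0.10, -0.03, 0.04 and 0.13. The part that length or the share of reads outside genes plays in the results was not tested.

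The genes with the largest increases were low at Stage1. Prmt8, a membrane-anchored arginine methyltransferase, read 0.415, 0.269 and 0 CPM in the Stage1 libraries and 22.5, 19.2 and 21.3 at Stage2. Its log2 fold change was 6.40 (SE 0.44, adjusted p = 1.04e-08), and its level in iPSC was higher still, 45.9 ± 6.78. Crtac1, a secreted cartilage protein, read 0.415, 0.716 and 0.168 CPM and then 30.0, 31.8 and 37.6 (log2 fold change 6.24, SE 0.35). The groups did not overlap in either gene. A2m, the protease inhibitor alpha-2-macroglobulin, rose from 2.05 ± 0.944 to 148 ± 21.7 CPM (SD, n = 3). Mcf2, a guanine nucleotide exchange factor, rose from 0.827 ± 0.596 to 54.9 ± 3.25. Smc1b, a cohesin subunit used in meiosis, rose from 2.38 ± 0.635 to 121 ± 7.97, and Zfp600, one of a family of similar zinc finger genes whose reads may be shared, from 1.49 ± 0.374 to 70.9 ± 8.59. Crtac1, A2m and Smc1b were called lower again in iPSC than at Stage2, at 12.2, 70.4 and 72.4 CPM.

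By a rule of under 0.5 CPM in every library of one stage and over 5 in every library of the other, 12 genes were near 0 at Stage1 only and 0 were near 0 at Stage2 only. The 12 included Ripply1, a corepressor of somite segmentation, Kcnk1, a potassium channel, Cmklr1, the chemerin receptor, Smarcd3, a subunit of the BAF chromatin remodelling complex, and Pdcl2. Kcnk1 read 0.484, 0.269 and 0.253 CPM at Stage1 and 12.5, 13.2 and 18.2 at Stage2. Smarcd3 read 0.346, 0.358 and 0.0842 CPM and then 6.25, 8.32 and 10.9. The rule itself keeps the libraries of such genes from overlapping. Ripply1 had 3 reads in all at Stage1 and 281 at Stage2, 88.1 times as many after scaling (95% counting interval 29.8 to 430). The count of 12 became 21 without Stage1 replicate 1 and 19 without Stage1 replicate 3, and the count of 0 became 3 without Stage1 replicate 1. Fold changes from so few reads were imprecise. Without Stage1 replicate 1 the log2 fold change of Prmt8 was 7.21 and that of Ripply1 7.01, and without Stage1 replicate 3 that of the keratin gene Krt42 moved from 5.76 to 6.70.

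Most leading decreases were in genes of moderate level at Stage1. Cyp2b23, a cytochrome P450 gene with close paralogs, read 77.6, 63.8 and 66.3 CPM at Stage1 and 2.74, 2.04 and 2.52 at Stage2 (log2 fold change -4.83, SE 0.23, adjusted p = 2.34e-10). Nt5e, the surface nucleotidase that makes adenosine, read 29.0, 53.4 and 52.9 CPM and then 2.83, 2.96 and 2.78. Both genes were low in all 3 Stage2 libraries with no overlap. Capn6, a calpain without protease activity, fell from 12.4 ± 2.09 to 0.734 ± 0.132 CPM. Casp8, the initiator caspase of death receptor signalling, fell from 18.4 ± 1.34 to 1.51 ± 0.524, although MEF held 65.3. Insm1, a neuroendocrine zinc finger factor, fell from 7.05 ± 2.91 to 0.403 ± 0.332, with a log2 fold change of -4.05, or -5.04 without Stage2 replicate 3. For 2 other genes a single Stage1 library carried most of the reads. Foxd1, a forkhead factor of kidney stroma, read 34.4, 4.56 and 3.62 CPM at Stage1, and its log2 fold change of -5.01 was -3.21 without Stage1 replicate 1. Aldh3a1, an aldehyde dehydrogenase, read 5.53, 33.7 and 8.84, and its log2 fold change of -4.43 was -3.29 without Stage1 replicate 2.

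**Figure D1:**
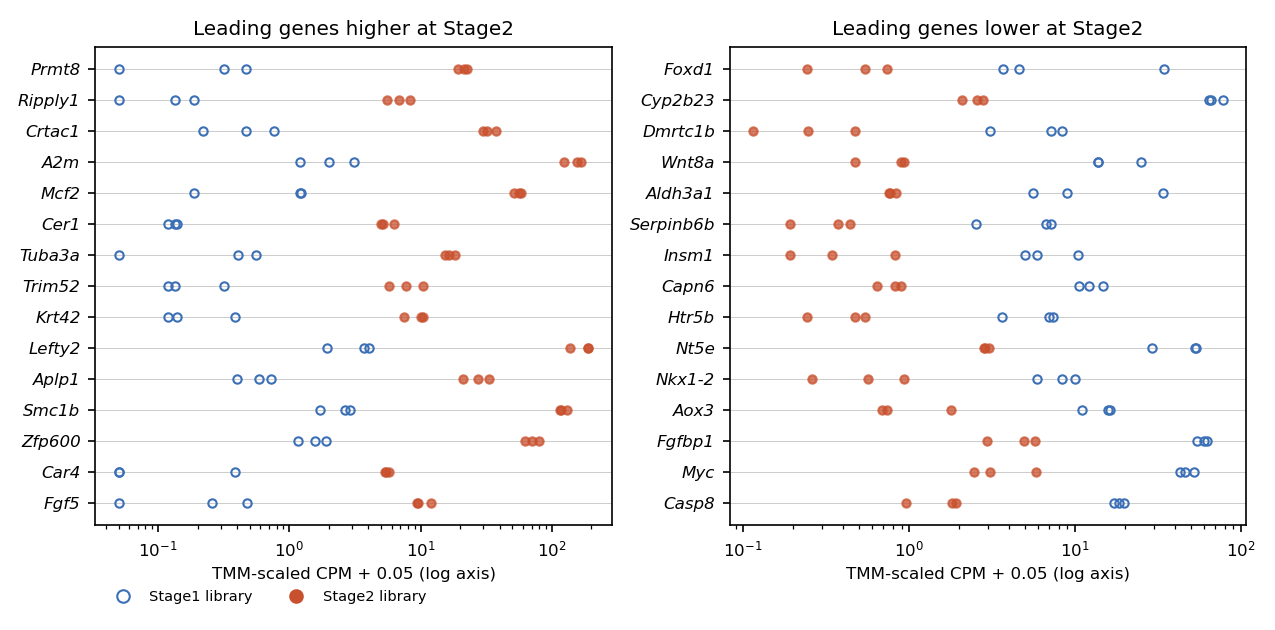
The 15 leading genes in each direction, as TMM-scaled CPM plus 0.05 on a log axis, with 1 point per library (open, Stage1; filled, Stage2). Libraries at the left edge of the panel of higher genes had no count. The 3 libraries of each stage do not overlap in any of the 30 genes, which the rule for choosing them required, and Stage1 values of Foxd1 run from 3.62 to 34.4 CPM.

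The changes were read through lists of genes with shared roles, whose called members are plotted as shares beside the shares among all genes. Lists in which most tested members rose included the hypoxia response, FGF ligands and receptors, meiosis, LIF signalling and Nodal signalling. Lists in which most tested members fell included Myc and ribosome biogenesis, the proteasome, mitochondrial ribosomal proteins and cyclins. Counts are of members called over all genes, and each list's median log2 fold change stands beside a median of 0.02 over all genes tested. Members with too few reads were not tested: 27 of 39 Hox genes, 40 of 71 protocadherins, 60 of 68 clustered histones and 6 of 10 endothelial markers passed the filter, and the other lists named below lacked at most 4 members.

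**Figure D2:**
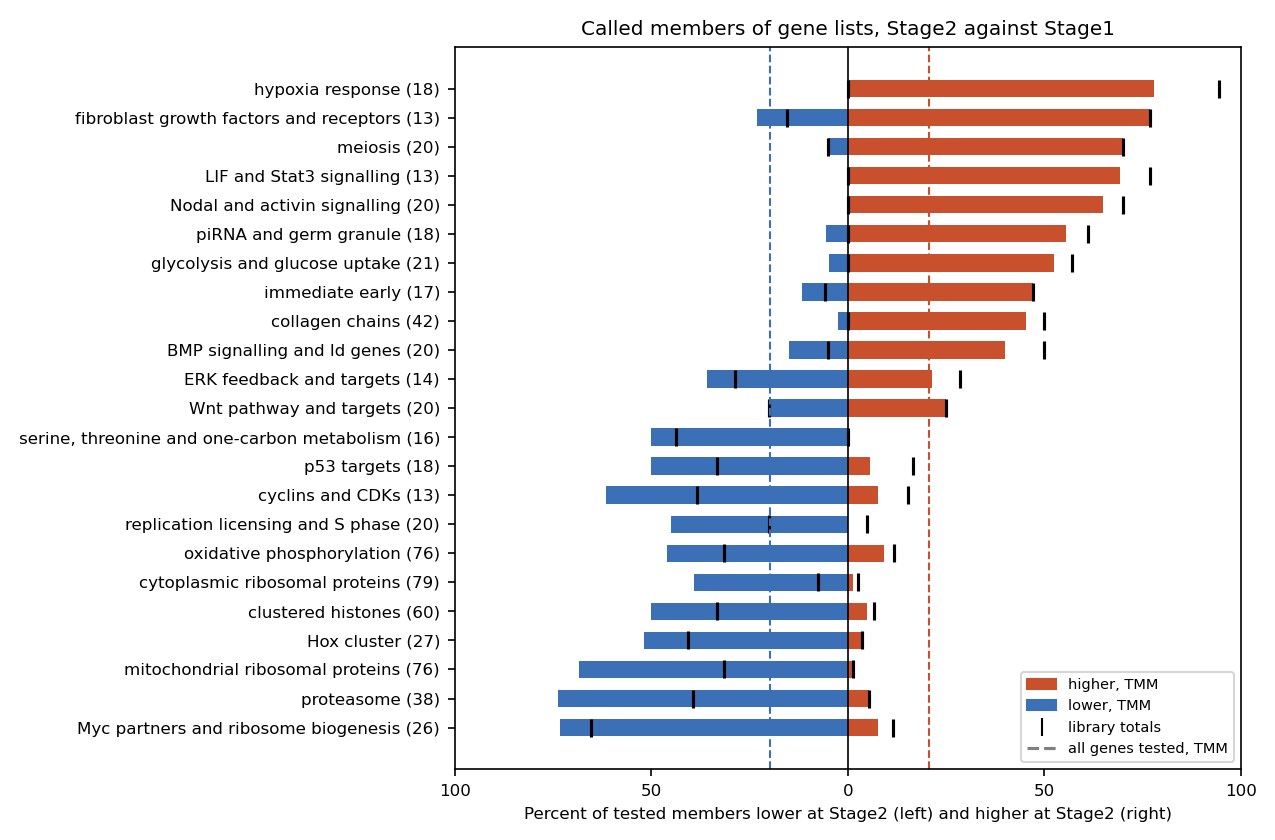
Percent of the tested members of 23 gene lists (number tested in brackets) called lower (left bars) or higher (right bars) at Stage2 with TMM scaling. Black marks give the same with library totals, and dashed lines the share of all genes tested, 20.6% higher and 19.8% lower. Marks for lower members of ribosomal protein and proteasome lists lie well inside their bars, as at 15 of 38 against 28 of 38 for the proteasome.

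Nodal pathway transcripts rose, from the ligand and its processing enzymes to the feedback inhibitors. Nodal is a TGF-beta family ligand that signals through activin receptors, the coreceptor Tdgf1 (Cripto) and Smad2 and Smad3, and induces its own inhibitors. Of 20 tested members, 13 were higher, 0 lower and 7 not called, with a median log2 fold change of 1.16. Library totals gave 14 higher and 0 lower, and leaving out single libraries gave 11 to 12 higher. The ligand Nodal read 7.61, 9.22 and 7.996 CPM at Stage1 and 15.2, 13.6 and 11.4 at Stage2, with no overlap (log2 fold change 0.70, SE 0.23, adjusted p = 0.026). The proprotein convertases that cleave it rose as well, Furin from 2.30 ± 0.792 to 7.54 ± 1.42 CPM and Pcsk6 from 26.9 ± 4.52 to 53.3 ± 5.04. Tdgf1 read 1183, 634 and 716 CPM and then 2722, 1930 and 2190, above Stage1 in every library. Smad3 rose from 10.4 ± 0.438 to 26.0 ± 3.04 CPM, while Smad2 (log2 fold change 0.25, adjusted p = 0.136) and Smad4 (-0.18, adjusted p = 0.401) did not pass, although Smad2 did with library totals. The call for Nodal was lost without Stage1 replicate 1 or 3 or Stage2 replicate 1 or 2 (adjusted p up to 0.105).

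Feedback inhibitors were among the larger changes of the list. Lefty1, a secreted antagonist of Nodal, read 0.0691, 0.179 and 0.505 CPM at Stage1 and 8.31, 6.21 and 8.60 at Stage2, without overlap. Its log2 fold change was 4.94 (SE 0.45), and 5.90 without Stage1 replicate 3. It was higher again in iPSC, at 17.0 CPM. Skil, a nuclear repressor of Smad activity, read 119, 78.8 and 80.5 and then 371, 400 and 418 (log2 fold change 2.09, SE 0.17, adjusted p = 5.26e-08). The inhibitory Smad7 rose from 22.1 ± 3.75 to 76.7 ± 8.98 and Pmepa1, another inhibitor, from 1.84 ± 0.679 to 6.81 ± 0.496. Most receptors moved little: Acvr1b rose by a log2 fold change of 0.47 (adjusted p = 0.0457), while Acvr2a (0.14) and Acvr2b (0.51) did not pass. The call for Acvr1b held without Stage1 replicate 1 and was lost without any one of the other 5 libraries (adjusted p up to 0.213). The pathway's DNA-binding partner Foxh1 (-0.35, adjusted p = 0.379) did not pass either.

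All 13 tested members of the FGF ligand and receptor list were called, 10 higher and 3 lower, with a median log2 fold change of 2.73 (10 and 2 with library totals). FGF4 is the autocrine ligand of pluripotent cells, and Fgf4 read 179, 204 and 191 CPM at Stage1 and 413, 389 and 470 at Stage2. Its log2 fold change was 1.15 (SE 0.18, adjusted p = 7.05e-05), with no overlap. Fgf10, a ligand best known from limb and lung buds, rose from 0.891 ± 0.488 to 18.1 ± 0.832 CPM. Fgf15 rose from 0.331 ± 0.120 to 4.52 ± 1.03, and Fgf17 from 0.355 ± 0.499 to 5.73 ± 0.824. Both belong to ligands active in the early embryo. Fgf10 and Fgf7 were called lower in iPSC than at Stage2, at 6.69 and 1.83 CPM. Leaving out Stage1 replicate 3 moved the log2 fold change of Fgf17 from 4.00 to 6.02. Fgf2 (0.207, 0 and 0 CPM at Stage1, 0.195, 0.353 and 1.10 at Stage2) overlapped between the stages although it was called (adjusted p = 0.0422), a call lost without Stage1 replicate 2 or 3 or Stage2 replicate 3 (adjusted p up to 0.288).

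The receptors moved in opposite directions. Fgfr3 read 0.761, 0.0895 and 0.168 CPM at Stage1 and 6.84, 6.06 and 8.41 at Stage2, a log2 fold change of 4.26 that became 5.66 without Stage1 replicate 1. Fgfr2 read 24.1, 19.3 and 20.1 CPM and then 3.71, 4.72 and 4.07 (log2 fold change -2.34, SE 0.39, adjusted p = 0.000174). Fgfbp1, a secreted carrier that releases FGFs from the matrix, read 59.7, 62.6 and 54.0 and then 5.67, 2.89 and 4.85. None of these 3 genes overlapped between stages. Fgfr1, the main receptor of embryonic stem cells, fell from 46.6 ± 2.72 to 34.6 ± 3.58 CPM with TMM (adjusted p = 0.0308), a call that library totals did not make and that was lost without any one of the 6 libraries except Stage2 replicate 1 (adjusted p up to 0.0984). Genes that ERK signalling induces moved in both directions. Of 14 tested feedback and target genes, 3 were higher, 5 lower and 6 not called, with a median of -0.38 (4 higher and 4 lower with library totals). The share higher, 21.4%, was close to the 20.6% of all genes tested, and the share lower was 35.7%, against 19.8%. The inhibitor Spry1 rose from 5.36 ± 0.831 to 14.8 ± 1.06 CPM, while its relative Spry4 fell from 58.1 ± 12.7 to 25.4 ± 8.15 and Spred1 fell from 166 ± 10.0 to 77.7 ± 5.39.

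**Figure D3:**
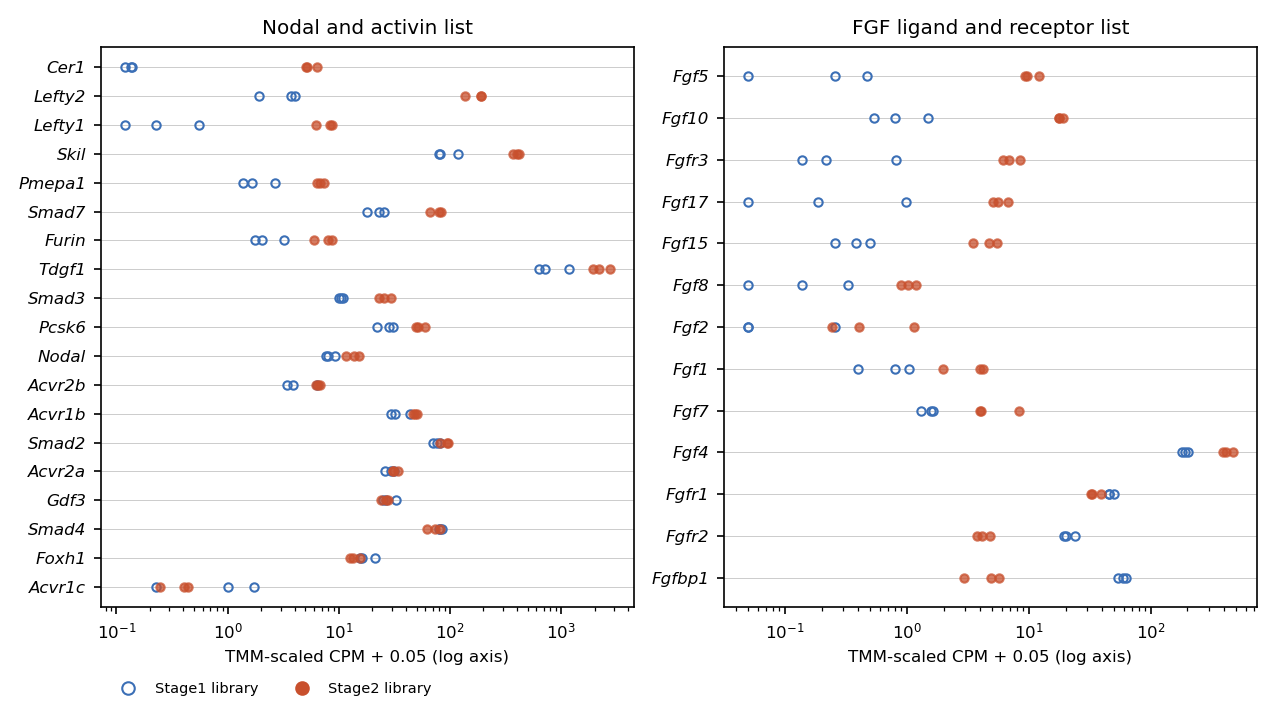
Tested members of the Nodal and activin list (left, with 1 member not shown) and of the FGF list (right), ordered by log2 fold change, as TMM-scaled CPM plus 0.05 on a log axis with 1 point per library. The secreted inhibitors and several ligands lie near 0 at Stage1, while Smad2, Smad4 and the activin receptors change little. Fgfr2 and Fgfbp1 lie to the left at Stage2 and Fgfr3 to the right.

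Wnt pathway genes moved in both directions. Of 20 tested, 5 were higher, 4 lower and 11 not called, with a median of 0.04 (5 and 4 with library totals), shares close to those of all genes. Lef1, a transcription factor that carries beta-catenin to DNA, read 0.553, 3.76 and 1.52 CPM at Stage1 and 79.4, 56.0 and 70.9 at Stage2, without overlap. Its log2 fold change was 5.19 (SE 0.39, adjusted p = 3.41e-08), or 6.08 without Stage1 replicate 2, and it was called lower in iPSC, at 10.1 CPM. Its relative Tcf7 rose from 6.52 ± 1.61 to 27.3 ± 3.51 and also lay lower in iPSC, at 12.5. The repressive family member Tcf7l1 read 12.9, 6.53 and 8.59 and then 7.03, 6.56 and 3.30, with overlap (adjusted p = 0.0888). Notum, an extracellular enzyme that inactivates Wnt ligands, rose from 1.99 ± 0.173 to 8.84 ± 0.814, and the receptor Fzd7 from 35.1 ± 1.58 to 119 ± 5.57. Porcn, the enzyme that lipidates Wnt ligands for secretion, fell from 47.3 ± 8.34 to 19.6 ± 4.76. Axin2, the usual readout of pathway activity, read 11.03 ± 3.81 and 10.1 ± 0.748 (log2 fold change -0.12, adjusted p = 0.795). Ctnnb1, which encodes beta-catenin, was 675 ± 9.69 and 621 ± 21.1 (-0.12, adjusted p = 0.438).

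In the LIF list, 9 of 13 tested members were higher, 0 lower and 4 not called, with a median of 0.65. Library totals gave 10 higher, and the count was 5 without Stage2 replicate 1. LIF binds Lifr and Il6st and activates the JAK kinases and Stat3, which support naive pluripotency. Lifr read 79.0, 78.5 and 91.7 CPM at Stage1 and 211, 189 and 190 at Stage2, with no overlap (log2 fold change 1.24, SE 0.14, adjusted p = 3.24e-06). Il6st (-0.08, adjusted p = 0.667) and Stat3 (0.24, adjusted p = 0.28) did not pass with TMM, although Stat3 did with library totals (0.45). Targets of the pathway rose, Socs3 from 52.7 ± 6.25 to 140 ± 13.1 CPM and the kinase gene Pim3 from 26.0 ± 0.738 to 72.9 ± 9.09. Of 20 BMP genes, 8 were higher, 3 lower and 9 not called, against 10 and 1 with library totals. Secreted and intracellular inhibitors of BMP rose, Fst from 2.30 ± 0.430 to 5.94 ± 1.43 and Smad6 from 1.55 ± 0.407 to 8.88 ± 1.68. Id2, a direct BMP target, fell from 13.9 ± 1.99 to 7.25 ± 0.749 CPM (adjusted p = 0.0274), a call lost with library totals and without Stage1 replicate 2 or Stage2 replicate 1 or 3 (adjusted p up to 0.0982). Id3 fell from 39.5 ± 5.79 to 4.49 ± 0.845 (log2 fold change -3.14, SE 0.26, adjusted p = 8.38e-08), and Id1 read 1.81 ± 1.01 and 2.34 ± 0.511 (adjusted p = 0.543). Of 17 immediate early genes, 8 were higher, 2 lower and 7 not called. Library totals gave 8 and 1. Fos read 23.4, 5.55 and 5.22 CPM at Stage1 and 66.3, 60.7 and 42.4 at Stage2. Its log2 fold change was 2.28, and 3.37 without Stage1 replicate 1.

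Genes of the hypoxia response rose together. HIF, the factor that accumulates when oxygen is low, drives genes for angiogenesis, glucose use, collagen hydroxylation and mitochondrial removal. Of 18 tested members, 14 were higher, 0 lower and 4 not called, with a median log2 fold change of 1.62 (17 higher with library totals). Vegfa, the main angiogenic growth factor, read 48.0, 23.4 and 27.9 CPM at Stage1 and 224, 228 and 237 at Stage2 (log2 fold change 2.79, SE 0.20, adjusted p = 2.2e-08). Ndrg1, a stress-induced protein, read 25.7, 15.2 and 14.6 and then 85.1, 99.8 and 97.9. Neither gene's groups overlapped. The prolyl hydroxylase gene Egln3, which HIF induces and which marks HIF for degradation, rose from 17.6 ± 8.92 to 95.9 ± 2.71 CPM. P4ha1 and P4ha2, catalytic subunits of collagen prolyl hydroxylase, rose from 56.8 ± 33.5 to 195 ± 24.2 and from 2.10 ± 1.24 to 13.5 ± 2.78. Bnip3, a mitophagy receptor, rose from 93.5 ± 56.7 to 258 ± 36.9, and Kdm3a, a histone demethylase, from 117 ± 12.9 to 239 ± 2.49. Pdk1 (0.18, adjusted p = 0.276), Higd1a (0.30, adjusted p = 0.212), Egln1 (0.43, adjusted p = 0.0843) and Ak4 (-0.10, adjusted p = 0.72) did not pass with TMM. Library totals called Pdk1, Higd1a and Egln1 higher.

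Replicate 1 of Stage1 lay towards Stage2 in this list. The summed level of the 18 genes was 1294, 940.4 and 937.3 CPM at Stage1 and 2103, 2330 and 2377 at Stage2, and 16 of the 18 genes were highest in replicate 1 among the Stage1 libraries, against 39.8% of all genes tested. Without that library 15 members were called higher, and the log2 fold change of P4ha2 was 3.27 instead of 2.64, that of P4ha1 2.36 instead of 1.77 and that of Bnip3 2.07 instead of 1.46. Egln1 was called without it (0.72). The call for Bnip3 (adjusted p = 0.0306) was lost without Stage1 replicate 2 or 3 or Stage2 replicate 2 or 3, with an adjusted p up to 0.1, and with no filter on low counts (0.0752). The levels at Stage2 were near those of iPSC (1974 to 2115 CPM) and of MEF (1897 to 2514).

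The core of the sequence that HIF recognises is ACGTG. It was searched on both strands in the 250 bases before the start of each gene in the RefSeq promoter table (GRCm38.p6). The motif was chosen after the values of the list had been seen. It occurred in 9 of the 16 members with a promoter in the table (56.25%), against 21.41% of the promoters of 11530 tested genes. The excess was not particular to this list. In the germline lists described below, the motif occurred in 38.89% of meiosis promoters and 58.82% of piRNA and germ granule promoters. The median number of CG was 19.5 in hypoxia promoters, 14 in both germline lists together and 15 over all tested genes. The part of CG content, which the motif includes, was not tested. The windows below show the last 120 bases before the start, 5′ to 3′ on the gene's strand, for 4 members that rose, with the motif in capitals on either strand (CACGT is ACGTG read from the other strand, and CACGTG holds both). They are shown as examples of members with the motif in this window, which Car9, Egln1 and Ero1l also hold.
P4ha1 (chr10:59323176-59323295, plus strand): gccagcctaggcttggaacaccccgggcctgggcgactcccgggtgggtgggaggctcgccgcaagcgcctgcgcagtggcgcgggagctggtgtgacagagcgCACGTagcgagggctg
P4ha2 (chr11:54100804-54100923, plus strand): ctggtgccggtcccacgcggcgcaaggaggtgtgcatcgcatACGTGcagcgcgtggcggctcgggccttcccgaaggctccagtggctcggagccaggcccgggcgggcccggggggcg
Bnip3 (chr7:138909507-138909626, minus strand): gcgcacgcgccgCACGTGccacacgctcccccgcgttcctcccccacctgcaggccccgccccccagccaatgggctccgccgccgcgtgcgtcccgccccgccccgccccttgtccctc
Ankrd37 (chr8:45999851-45999970, minus strand): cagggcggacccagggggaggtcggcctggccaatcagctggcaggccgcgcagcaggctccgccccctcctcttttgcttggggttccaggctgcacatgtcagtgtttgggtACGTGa
A match describes the letters only, and occupancy by HIF was not measured in these data.

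Genes of glucose uptake and glycolysis rose more often than they fell. Of 21 tested genes, 11 were higher, 1 lower and 9 not called, with a median of 0.80 (12 higher and 0 lower with library totals). The glucose transporter gene Slc2a1 read 254, 129 and 130 CPM at Stage1 and 463, 480 and 544 at Stage2 (log2 fold change 1.53, SE 0.24, adjusted p = 7.99e-05). The hexokinase genes Hk1 and Hk2 rose from 30.2 ± 8.14 to 99.6 ± 6.51 and from 321 ± 67.7 to 723 ± 24.0 CPM. Phosphofructokinase Pfkp rose from 379 ± 78.0 to 1030 ± 40.7, and was called lower again in iPSC at 590.2. In all 4 genes every Stage2 library lay above every Stage1 library. Gapdh (-0.02), Pkm (0.20) and Ldha (-0.16) did not pass, but Ldhb, the subunit that favours lactate oxidation, rose from 27.7 ± 13.2 to 121 ± 13.1. Slc2a3, another glucose transporter gene, fell from 1931 ± 475.6 to 1350 ± 123 CPM with TMM (adjusted p = 0.0197), a call that was lost with library totals and without Stage1 replicate 1 (adjusted p = 0.126) or Stage2 replicate 1 (0.0782). The summed level of the list was 13225, 8876 and 8282 CPM at Stage1 and 12334, 13272 and 12769 at Stage2, with Stage1 replicate 1 inside the Stage2 range. Stage1 replicate 1 was the highest Stage1 library in 20 of the 21 genes, and without it 14 were called higher. Without it the log2 fold change of Eno2, an enolase gene, was 3.17 in place of 2.42.

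**Figure D4:**
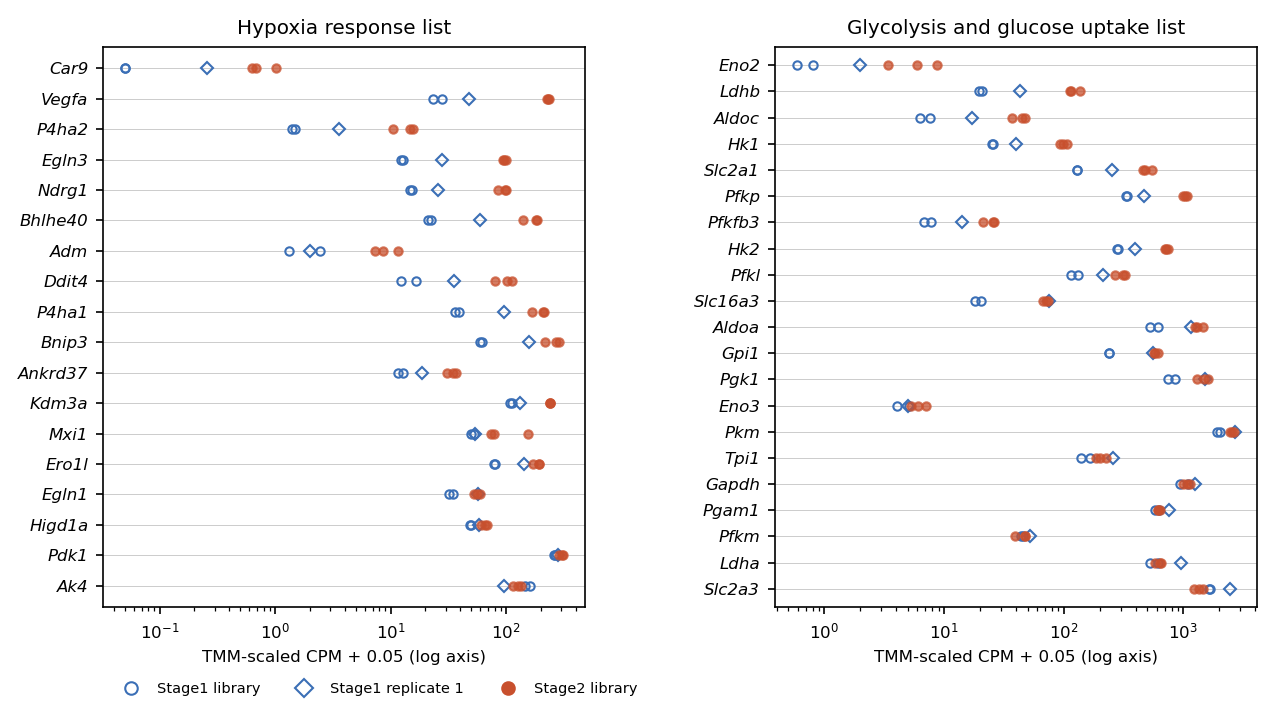
Tested members of the hypoxia list (left) and of the glycolysis list (right), ordered by log2 fold change, as TMM-scaled CPM plus 0.05 on a log axis, with 1 point per library. Diamonds mark Stage1 replicate 1, which lies to the right of the other Stage1 libraries in 16 of 18 and 20 of 21 genes. Filled points of Stage2 lie further right for the upper genes of both panels.

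Most tested genes of meiosis and of the piRNA pathway rose. The lists hold genes of chromosome pairing, of transposon repression in germ cells, and of germ granules, many of them kept off in somatic cells by promoter methylation and by E2F6 and MGA complexes. Of 20 tested meiosis genes, 14 were higher, 1 lower and 5 not called, with a median of 2.07. Of 18 tested piRNA and germ granule genes, 10 were higher, 1 lower and 7 not called, with a median of 1.53. Library totals gave 14 and 11 higher and 1 and 0 lower, and leaving out single libraries gave 11 to 14 and 8 to 9. Hormad1, a chromosome axis protein, read 2.56, 3.49 and 2.61 CPM at Stage1 and 34.5, 27.9 and 25.9 at Stage2. Stag3, a meiotic cohesin subunit, read 16.1, 15.2 and 14.6 and then 92.0, 106 and 109 (log2 fold change 2.74, SE 0.17, adjusted p = 3.58e-09). Both were without overlap. The recombinase gene Dmc1 rose from 4.86 ± 2.09 to 32.7 ± 4.01 CPM, and Rnf17, a germ granule component, from 56.5 ± 19.7 to 227 ± 20.8.

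Members differed in where they stood relative to iPSC. Hormad2 was called lower in iPSC, at 3.85 CPM against 17.1 ± 1.25 at Stage2. Tex11, an X-linked meiosis gene, and Stra8, the retinoic acid induced gate to meiosis, were called higher, at 36.5 against 6.53 ± 1.34 and at 18.5 against 1.87 ± 0.672. Tex15 ran against the group and fell from 87.0 ± 22.6 to 44.8 ± 5.21 CPM, as did Piwil2, a PIWI protein gene, from 26.8 ± 5.40 to 15.5 ± 0.827 (adjusted p = 0.0117, not called with library totals or without Stage1 replicate 2, at 0.0865). Syce2, a component of the synaptonemal complex, read 75.2 ± 5.86 and 80.4 ± 7.38 (adjusted p = 0.689).

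The promoters of these members were searched for CACGTG, the E-box read by MGA and MAX, and for GCGGGAA, an E2F6 site, on both strands over the same 250 bases. CACGTG contains the ACGTG searched above. Of the 35 members of both lists with a promoter in the RefSeq table, 13 held CACGTG (37.14%), against 8.369% of tested genes, and 6 held GCGGGAA (17.14%), against 6.938%. Members that rose and members that did not both carried CACGTG in the piRNA list (4 of 9 and 3 of 8), whereas in the meiosis list the counts were 6 of 13 and 0 of 5. The last 120 bases before the start are shown for 6 members that rose, as the sequences in which these matches lie, with both motifs in capitals on either strand (TTCCCGC is GCGGGAA read from the other strand).
Sycp3 (chr10:88459467-88459586, plus strand): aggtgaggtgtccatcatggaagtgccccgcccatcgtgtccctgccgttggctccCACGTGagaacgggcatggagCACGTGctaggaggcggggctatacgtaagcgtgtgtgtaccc
Hormad1 (chr3:95559557-95559676, plus strand): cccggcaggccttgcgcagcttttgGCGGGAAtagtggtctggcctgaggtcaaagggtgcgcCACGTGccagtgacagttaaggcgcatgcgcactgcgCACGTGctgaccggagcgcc
Stk31 (chr6:49395419-49395538, plus strand): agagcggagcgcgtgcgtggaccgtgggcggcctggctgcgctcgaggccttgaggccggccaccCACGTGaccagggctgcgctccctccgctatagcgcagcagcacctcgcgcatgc
Ddx4 (chr13:112652311-112652430, minus strand): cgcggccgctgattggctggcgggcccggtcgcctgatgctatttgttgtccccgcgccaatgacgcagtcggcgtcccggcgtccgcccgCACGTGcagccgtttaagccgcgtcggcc
Taf7l (chrX:134476491-134476610, minus strand): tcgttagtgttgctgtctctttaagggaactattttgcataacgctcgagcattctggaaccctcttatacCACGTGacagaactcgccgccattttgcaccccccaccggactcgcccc
Smc1b (chr15:85131958-85132077, minus strand): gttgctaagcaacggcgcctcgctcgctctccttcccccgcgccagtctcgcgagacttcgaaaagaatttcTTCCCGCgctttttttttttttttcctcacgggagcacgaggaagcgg
Sycp3 and Hormad1 each hold 2 copies of CACGTG, and Smc1b holds GCGGGAA alone. The call for Taf7l was lost without Stage1 replicate 1 or 2 or Stage2 replicate 2 (adjusted p up to 0.06). Binding and methylation of these promoters were not measured in these data.

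Myc and genes of ribosome production fell. Myc, whose product drives ribosome production, read 51.9, 46.0 and 42.8 CPM at Stage1 and 5.76, 3.03 and 2.39 at Stage2. Of 26 tested genes for Myc, its partners and ribosome biogenesis, 2 were higher, 19 lower and 5 not called, with a median of -0.84 (3 and 17 with library totals). Odc1, the rate-limiting enzyme of polyamine synthesis and a classical Myc target, read 1274, 1678 and 1618 CPM and then 681, 704 and 625 (log2 fold change -1.18, SE 0.14, adjusted p = 5.9e-06). Rrp9, a ribosomal RNA processing factor, read 113, 134 and 122 and then 53.9, 55.2 and 40.1. Neither overlapped. The nucleolar genes Nop2, Nop56, Nop58, Nolc1 and Ddx21 fell by 1.13, 0.83, 1.10, 1.03 and 1.08 on the log2 scale, and the RNA polymerase I subunit gene Polr1b fell from 158 ± 12.05 to 87.6 ± 8.29 CPM. The 2 members that rose are antagonists of Myc at its binding sites, Mnt from 10.7 ± 0.967 to 21.1 ± 1.48 and Mxd3 from 4.94 ± 0.0893 to 8.64 ± 0.966. The call for Mxd3 was lost without any one of the 6 libraries (adjusted p 0.0742 to 0.143). Mycn (0.25, adjusted p = 0.17), its relative, did not pass with TMM but did with library totals (0.46). The summed level of the list was 19605 to 25219 CPM at Stage1 and 12382 to 13020 at Stage2.

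Threonine, methionine and folate metabolism fell in a subset of enzymes. Of 16 tested genes, 0 were higher, 8 lower and 8 not called, with a median of -0.45 (0 and 7 with library totals). Tdh, threonine dehydrogenase, on which mouse embryonic stem cells depend for glycine, read 598, 702 and 641 CPM at Stage1 and 193, 202 and 186 at Stage2 (log2 fold change -1.74, SE 0.18, adjusted p = 9.22e-07), without overlap. MEF held 0.0835 CPM and iPSC 223.9. Mat2a, which makes S-adenosylmethionine, fell from 401 ± 46.9 to 187 ± 14.1 and Ahcy, which clears its product, from 255 ± 13.9 to 139 ± 11.96. The cytosolic folate enzymes Shmt1 and Mthfd1 fell by 1.17 and 0.88 on the log2 scale, while the mitochondrial Shmt2 (0.12) and Mthfd2 (-0.08) did not pass. Phgdh, the entry enzyme of serine synthesis, fell from 88.2 ± 6.11 to 53.1 ± 2.94 CPM.

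**Figure D5:**
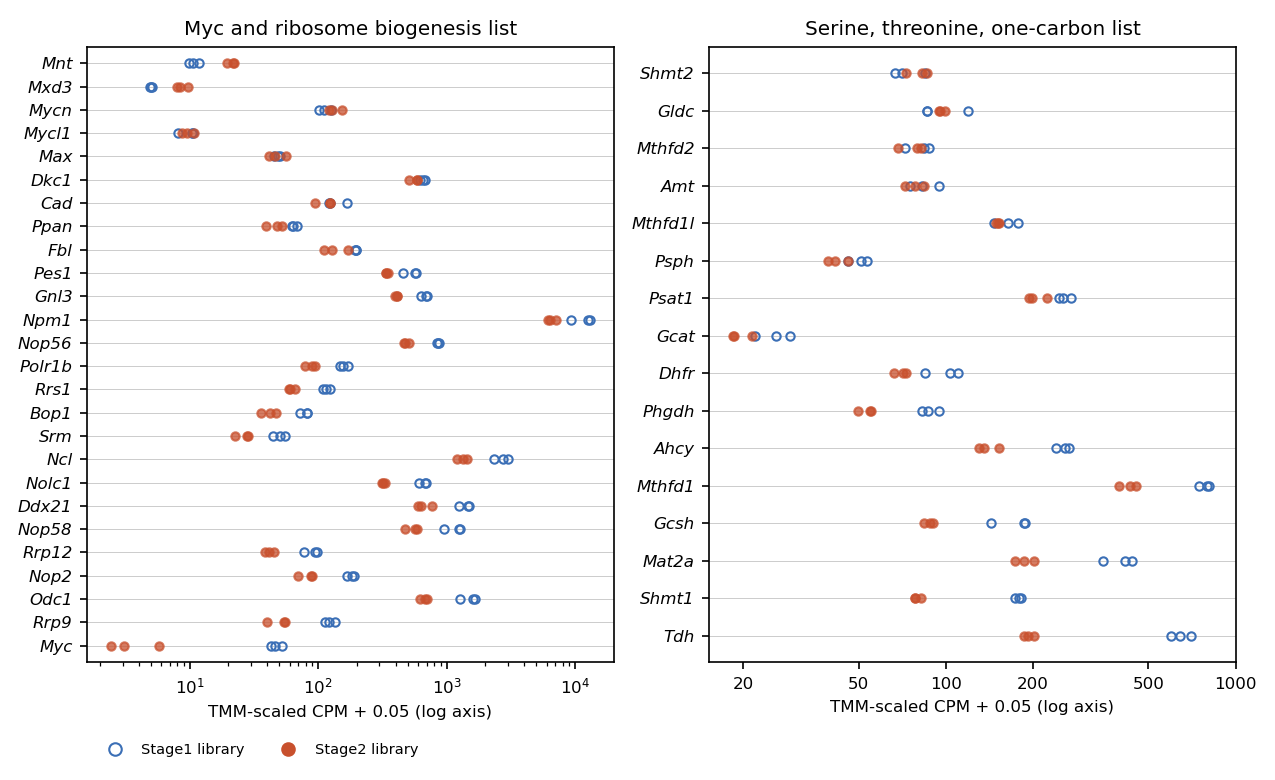
Tested members of the Myc and ribosome biogenesis list (left) and of the serine, threonine and one-carbon list (right), ordered by log2 fold change, as TMM-scaled CPM plus 0.05 on a log axis, with 1 point per library. Stage2 points of Myc lie between 2.39 and 5.76 CPM and its Stage1 points between 42.8 and 51.9. Most genes of the lower part of both panels have all Stage2 points to the left of all Stage1 points.

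Housekeeping machines for protein synthesis and degradation fell by small amounts that depended on scaling. Of 76 tested mitochondrial ribosomal protein genes, 1 was higher, 52 lower and 23 not called, with a median of -0.57. Library totals left 24 lower, and leaving out single libraries gave 31 to 50. Mrpl12 fell from 68.2 ± 1.20 to 25.9 ± 4.63 CPM and Mrpl20 from 38.2 ± 4.13 to 15.1 ± 0.731. Of 38 tested proteasome genes, 2 were higher, 28 lower and 8 not called, with a median of -0.51 (15 lower with library totals, 18 to 29 with a library left out). Psmd9, an assembly chaperone of the base, fell from 29.5 ± 5.06 to 12.9 ± 1.89. The 2 that rose were the testis subunit Psma8 and the immunoproteasome subunit Psmb8. Psma8 rose from 1.02 ± 0.127 to 8.96 ± 1.44 CPM. Psmb8 had 2 reads at Stage1 and 59 at Stage2 (ratio 27.8, 95% counting interval 7.35 to 235). The fitted log2 fold change of Psmb8 was 4.57, and 7.23 without Stage1 replicate 1. For cytoplasmic ribosomal proteins, whose pseudogenes can share reads, 31 of 79 were lower with TMM and 6 with library totals. With a library left out 9 to 26 were lower, the fewest without Stage1 replicate 2, and in a fit of the 6 libraries alone 53 were lower. Of 76 oxidative phosphorylation genes, 7 were higher and 35 lower (9 and 24 with library totals). Psmb1 and Cox6b1 were called higher in iPSC than at Stage2, at 338 and 132 CPM against 227 ± 7.64 and 74.0 ± 13.9.

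Several genes of S phase entry and DNA replication fell. Of 13 tested cyclin and CDK genes, 1 was higher, 8 lower and 4 not called, against 2 and 5 with library totals. Ccne1, the cyclin that starts S phase, read 191, 252 and 232 CPM at Stage1 and 115, 106 and 108 at Stage2 (log2 fold change -1.04, SE 0.15, adjusted p = 3.79e-05). It was called higher in iPSC, at 212.7. Ccnd2, a D-type cyclin, fell from 34.2 ± 5.32 to 13.3 ± 2.33, whereas Ccnd1 read 92.4 ± 7.68 and 91.6 ± 11.05 (adjusted p = 0.959). Of 10 CDK inhibitor and Rb family genes, 4 were higher and 1 lower with both scalings. The inhibitor gene Cdkn1b rose from 44.2 ± 2.90 to 82.3 ± 10.9 CPM and the pocket protein gene Rbl2 from 13.7 ± 2.18 to 31.0 ± 3.11. Cdkn2a, the locus whose products block reprogramming, fell from 19.4 ± 7.54 to 9.78 ± 0.447, a call lost without Stage1 replicate 3 (adjusted p = 0.054). Of 20 replication genes, 0 were higher and 9 lower (1 and 4 with library totals), among them Pcna, the sliding clamp, from 681 ± 30.5 to 403 ± 10.5. Of 18 p53 targets, 1 was higher and 9 lower (3 and 6 with library totals). Perp, an effector of p53 at cell junctions, fell from 66.8 ± 4.44 to 28.5 ± 3.09, and the repair subunit Rrm2b rose from 26.7 ± 4.33 to 85.7 ± 13.3. Trp53 itself did not pass (-0.24, adjusted p = 0.309).

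Clustered histone genes fell more often than they rose, with 30 lower and 3 higher among 60 tested and a median of -0.65 (20 lower and 4 higher with library totals, and 20 lower without Stage1 replicate 2). The summed level of the list overlapped between the stages, at 8849, 10756 and 11778 CPM at Stage1 and 9245, 6924 and 13913 at Stage2. The linker histone gene Hist1h1e read 244, 286 and 244 CPM at Stage1 and 91.2, 72.6 and 75.5 at Stage2, without overlap. The 3 that rose are testis variants or genes known from testis: Hist1h1t from 4.04 ± 1.52 to 8.14 ± 0.599, Hist1h2ba from 0.335 ± 0.129 to 1.40 ± 0.0784, and Hist1h2aa from 3 reads to 65 (ratio 20.4, 95% counting interval 6.67 to 101). The fitted log2 fold change of Hist1h2aa was 4.23, and 7.44 without Stage1 replicate 3. The call for Hist1h1t was lost without Stage1 replicate 1 or Stage2 replicate 1 or 3 (adjusted p up to 0.096). Replication-dependent histone transcripts lack poly(A) tails and share near-identical sequences, and the part of library type or read assignment in this result was not tested.

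DNA methylation enzymes moved in different directions. Of 12 tested genes, 4 were higher, 3 lower and 5 not called, against 7 and 1 with library totals. Dnmt3a, a de novo methyltransferase, read 40.4, 28.9 and 29.5 CPM at Stage1 and 142, 93.1 and 84.4 at Stage2 (log2 fold change 1.69, SE 0.22, adjusted p = 1.62e-05), without overlap. Its relative Dnmt3b read 178, 351 and 363 and then 202, 147 and 146, with overlap (log2 fold change -0.85, adjusted p = 0.0333, not called with library totals). The call was also lost without Stage1 replicate 2 or 3 or Stage2 replicate 2 or 3 (adjusted p up to 0.12). Zfp57, which keeps methylation at imprinted loci, rose from 267 ± 29.6 to 397 ± 31.8. The oxidase gene Tet1 rose from 712 ± 55.1 to 1074 ± 106, and Tet2 fell from 837 ± 78.6 to 619 ± 77.2, a fall not called with library totals. Without any one of the 6 libraries Tet1 was no longer called (adjusted p up to 0.119), nor was Tet2 without Stage1 replicate 1 or Stage2 replicate 2 (up to 0.0928). Among 13 maternally expressed imprinted genes 5 were higher and 3 lower, and among 20 paternally expressed ones 3 were higher and 3 lower (5 and 1, and 6 and 3, with library totals). The shares higher were 38.5% and 15%, against 20.6% of all genes tested, and the shares lower 23.1% and 15%, against 19.8%. The paternally expressed list thus lay below all genes in both directions. The paternally expressed Peg10, needed for the placenta, read 243, 198 and 237 CPM and then 34.2, 38.1 and 35.4 (log2 fold change -2.65, SE 0.21, adjusted p = 4.26e-08). The maternally expressed growth inhibitors Cdkn1c and Grb10 moved apart, from 1.30 ± 0.245 to 7.72 ± 1.36 and from 608 ± 100 to 263 ± 14.1. Plagl1 read 50.8, 13.5 and 19.1 at Stage1, and its log2 fold change of -2.17 was -1.41 without Stage1 replicate 1.

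Extracellular matrix and mesenchymal genes rose from low levels and stayed far below MEF. Of 42 tested collagen genes, 19 were higher, 1 lower and 22 not called, with a median of 1.38 (21 and 0 with library totals). Col5a1, a fibrillar collagen, read 2.14, 2.06 and 1.43 CPM at Stage1 and 21.01, 24.6 and 30.1 at Stage2 (log2 fold change 3.74, SE 0.26, adjusted p = 1.04e-08), without overlap. MEF held 2468 CPM. Col9a2 and Col13a1, which MEF libraries listed at 0, rose from 0.337 ± 0.159 to 6.86 ± 1.03 and from 0.423 ± 0.0767 to 2.48 ± 0.325. Of 15 smooth muscle genes 10 were higher and 1 lower (11 and 0 with library totals), among them Tagln, an actin-binding protein, from 2.63 ± 0.431 to 28.5 ± 5.11 (MEF 5320.5). Lists of cell type markers differed in how far they moved, and of the macrophage markers only 9.09% were called in each direction, below the shares of all genes tested. The fibroblast and mesenchymal list, with 19 of 26 higher and 1 lower (19 and 0 with library totals), summed to 868.9, 591.6 and 645.9 CPM at Stage1 and 1987, 1690 and 1838 at Stage2. The macrophage list (11 genes tested, 1 higher and 1 lower) summed to 29.0 to 38.4 and 40.9 to 51.5 CPM, and the endothelial list (6 tested, 2 higher) to 17.3 to 20.3 and 25.2 to 31.9. Cd68, a lysosomal glycoprotein gene, rose from 7.54 ± 3.30 to 25.0 ± 2.28 CPM, and Lyz2, a lysozyme gene, fell from 1.30 ± 0.273 to 0.439 ± 0.224 (adjusted p = 0.00849), a call lost without Stage2 replicate 3 (0.0548). Csf1r, the macrophage growth factor receptor gene, read 0.354 ± 0.0867 and 0.411 ± 0.113 (adjusted p = 0.785). Vwf, von Willebrand factor, rose from 1.44 ± 0.354 to 11.9 ± 1.51. In bulk RNA, more cells of a type cannot be told apart from more RNA per cell, and the part of such cells in these results was not tested.

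Hox genes, the positional code that fibroblasts keep, moved the other way. Of 27 tested, 1 was higher, 14 lower and 12 not called, with a median of -2.24 (1 and 11 with library totals). Replicate 1 of Stage1 carried much of this. The summed level was 94.8, 22.2 and 22.5 CPM at Stage1, 13.8, 11.4 and 14.0 at Stage2, and 328.2 to 484.8 in MEF, and 24 of the 27 genes were highest in replicate 1 among the Stage1 libraries. Without it 5 were called lower, and 7 were called lower in a fit of the 6 libraries alone. Hoxa9 read 13.0, 1.07 and 1.26 CPM and then 1.17, 0.141 and 0.0647, and its log2 fold change of -3.66 was -1.52 (adjusted p = 0.152) without that library. Hoxb7 read 3.94, 2.15 and 1.18 and then 0, 0.353 and 0, without overlap. The member that rose was Hoxc13, from 0.398 ± 0.0347 to 2.05 ± 0.551 CPM.

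Surface molecules of axon guidance and adhesion rose more often than they fell. The shares higher were 36.2% for the guidance list, 27.5% for protocadherins and 27.6% for integrins and laminins, against 20.6% of all genes tested. The shares lower were 8.51%, 2.5% and 13.8%, against 19.8%. Only the guidance list lay well above the share of higher genes among all genes. Of 47 tested semaphorin, plexin, ephrin and Eph genes, 17 were higher, 4 lower and 26 not called, with a median of 0.66 (22 and 4 with library totals). The receptor gene Ephb2 read 3.46, 2.77 and 2.53 CPM at Stage1 and 30.1, 32.6 and 34.9 at Stage2 (log2 fold change 3.47, SE 0.28, adjusted p = 5.56e-08), without overlap. Epha1 ran the other way, from 8.61 ± 2.37 to 2.06 ± 1.13. Of 40 protocadherin genes, whose clustered members share exons and so reads, 11 were higher and 1 lower (13 and 0 with library totals). Among integrins and laminins 8 of 29 were higher and 4 lower (12 and 2 with library totals), with Lama3 rising from 6.48 ± 1.22 to 30.5 ± 0.889. The epithelial gene Cdh3, a cadherin, rose from 11.6 ± 0.0779 to 38.9 ± 1.92 CPM, and the keratin gene Krt8 fell from 28.4 ± 14.8 to 7.81 ± 1.40.

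Several further genes of known role changed without overlap between the stages. Lin28a, which blocks let-7 microRNA processing, rose from 125 ± 30.1 to 296 ± 17.3 CPM, while Hmga2, a chromatin protein repressed by let-7, fell from 92.0 ± 2.99 to 29.4 ± 3.47 and was lower still in iPSC, at 3.89. Mbnl3, a splicing regulator of differentiated cells, fell from 18.9 ± 1.39 to 4.66 ± 0.273. The retinoic acid receptor gene Rara rose from 6.29 ± 0.934 to 34.3 ± 1.76. B2m, the light chain of class I histocompatibility molecules, fell from 22.3 ± 6.90 to 8.61 ± 0.123 and was called higher in iPSC, at 22.2. The X-linked homeobox gene Rhox6, whose family members may share reads, fell from 31.8 ± 9.63 to 2.86 ± 1.69. The Y-linked Zfy1 and Uba1y rose from 4.202 ± 1.85 to 27.7 ± 3.92 and from 2.12 ± 0.716 to 9.27 ± 1.74, and both were called lower in iPSC, at 1.29 and 1.26. Cox7b2, a cytochrome oxidase subunit gene, rose from 0.404 ± 0.310 to 5.37 ± 0.541 and lay at 0.263 in iPSC; its log2 fold change of 3.71 was 4.46 without Stage1 replicate 3.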

How the data were processed

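Total RNA was extracted with a miRNeasy Mini kit and sequenced on Illumina instruments, per the labels' protocols. Per the submitters' processing notes, the tools were TopHat2 2.0.9, Bowtie2 2.2.6, SAMtools 0.1.19, HTSeq 0.5.4p3 and DESeq2 1.12.4 on mm10. Strand setting and annotation version are not given in the sources used here. The deposited values are raw read counts per gene, 1 table per library, for 23420 genes. The 5 HTSeq summary rows stayed out of library sizes and tests, and gave the share of reads outside genes.

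Groups came from the titles. Genes passing filterByExpr (14770) were scaled with TMM and fitted with edgeR 4.0.16 (limma 3.58.1, statmod 1.5.0, R 4.3.3), a robust quasi-likelihood fit over the 12 libraries in 4 groups. Adjusted p-values are Benjamini-Hochberg over all 14770 genes, and a gene was called below 0.05. The prior count was 2. Levels are TMM-scaled CPM, and a log2 fold change's SE is its size divided by √F. Alternatives were library totals, RLE, no filter, 1 CPM in 3 libraries, DESeq2 1.42.0, the 6 libraries alone, structural RNA left out, a replicate block and each library left out. The fit was tested on simulated counts.

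Named genes were the 15 per direction with the largest change among called genes whose higher stage averaged 5 CPM or more, whose libraries did not overlap, and whose symbol is no clone, predicted or structural RNA name. Each of the 65 lists added its 4 called members with the largest change and at least 1 CPM, and called members against the larger direction. Other members were added for their role, some after their values were seen. The comparison, the lists and the motifs were chosen with earlier results of these data known. Reads of a gene and its antisense partner cannot be told apart here. The values of 1 member of the Nodal list, which its counts include, are not reported here.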

Additional observations from a re-analysis of the deposited data

How the results depend on the processing

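With library totals in place of TMM, 1678 genes were called lower instead of 2921. Lower genes at 2-fold or more numbered 446 instead of 774, and genes lower at Stage2 and lower in iPSC than in MEF 541 instead of 1074. Leaving out 1 library at a time gave 2367 to 2794 genes higher and 2115 to 2676 lower, 13 to 21 genes near 0 at Stage1 only, and 0 to 3 near 0 at Stage2 only. The other settings kept the counts of higher and lower genes within 1.5 times: RLE scaling gave 3370 and 2524, DESeq2 3534 and 2711, no filter 3006 and 2459, and the 6 libraries alone 3860 and 3551. Of the 349 named genes that were called, 349 kept their direction under every setting and 277 their call. Library totals removed 35 of these calls and single left-out libraries 34 to 48. The causes were not tested.

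Replicate numbers gave little sign of pairing the libraries. Deviations of same-numbered libraries correlated weakly, at 0.0194, 0.0469 and 0.0536, although each library correlated best with its own number. These values do not settle whether the numbers pair the libraries. A fit with the replicate number as a block called 2975 genes higher and 2824 lower, and 2167 and 768 at 2-fold or more. Under the block Acvr1b had an adjusted p of 0.0515 and Fgf2 of 0.0557.

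Among genes that were not called, log2 fold changes near 0 changed sign. With library totals they were 0.11 for Ak4, 0.092 for Axin2, 0.19 for Ccnd1, 0.085 for Ctnnb1, 0.18 for Gapdh, 0.13 for Il6st, 0.040 for Ldha, 0.13 for Mthfd2 and 0.027 for Smad4. Ccnd1 and Gapdh were at 0.045 and 0.041 with RLE, 0.018 and 0.0095 with no filter, 0.044 and 0.039 with DESeq2, 0.031 and 0.023 with the 6 libraries alone, and 0.020 and 0.014 without structural RNA. With 1 library left out the log2 fold changes spanned Gapdh -0.14 to 0.071, Id1 -0.020 to 0.84, Ldha -0.34 to 0.12, Ak4 -0.31 to 0.046, Axin2 -0.40 to 0.033 and Ccnd1 -0.098 to 0.067.

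The 3 libraries per group held 9257487 to 14395538 counted reads each. Genes near the floor of 0.208 to 0.324 CPM, given without TMM scaling, had fold changes that rested on a few reads.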
